A study of Mus musculus with 18 samples.

Results

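The mOrangeSTOP reporter holds 124 C:G base pairs in which the cytosine has a purine on its 5′ side and a C or G one base further 5′, written SRC when read 5′ to 3′ on the strand with the cytosine (S is C or G, R is A or G) and GYS on the other strand (Y is C or T). Membership was set by sequence alone among the 674 positions with at least 1000 base calls in all 18 libraries. All 124 sites passed that coverage limit. The class itself was chosen with earlier results of these data known. A at position -1, just 5′ of the cytosine, was present at 46 of them and G at 78. The cytosine lay on the coding strand at 71 sites and on the other strand at 53.

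AID, activation-induced cytidine deaminase, converts cytosine to uracil in DNA and starts somatic hypermutation and class switching of antibody genes in B cells. It prefers WRC, a cytosine preceded by a purine and then by A or T, so an SRC site keeps the purine of that motif and changes the base 5′ of it. A uracil that is copied gives a C-to-T transition, while the glycosylase UNG excises the uracil and leaves an abasic site, across which any base can be inserted. The Ugi protein blocks UNG.

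The reporter was carried by NIH-3T3 cells, a mouse fibroblast line, all of which were transduced with mOrangeSTOP. In every group the medium contained 1 µM OHT, which activates the estrogen receptor domain of the fusion proteins, over 11 days of culture. The 6 groups were AID-ER with Ugi, AID-E58Q-ER with Ugi, AID-ER with UNG, AID-E58Q-ER with UNG, AID-ER with an empty vector (Control) and AID-E58Q-ER with an empty vector. AID-E58Q is catalytically inactive, so its libraries give the background, whose sources (PCR, sequencing, or substitutions already in the cells or reporter) were not separated. Each group had 3 libraries, from experiments 1 to 3, and the labels do not say whether these were separate transductions, so p-values reflect the spread of these libraries only, and that spread may be technical. Every protein was delivered from a vector, outside B cells, and the labels name no deletion of the cells' own UNG in any group.

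Values are substitutions per 10000 base calls at a site, with transitions (C>T read on the cytosine strand) and transversions (C>A and C>G) counted apart. The depth per library was 24915866 to 95011754 calls of sufficient quality, and the median coverage of the 124 sites ran between 35031.5 and 133985 calls. A site with a count of 0 at that coverage could have a frequency as high as 0.00856% (shallowest library) or 0.00224% (deepest library). These limits take 3 counts as the bound and cover counting error only, because PCR copies were read with no molecular identifiers. The least covered sites were positions 63, 696 and 66, with 1142, 1357 and 1451 calls in their shallowest library.

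The windows below show sites on which the comparisons turn, each as 15 bases read 5′ to 3′ on the strand that holds the cytosine. The capitals mark the SRC triplet, whose last base is the target cytosine, and the letter after them is position +1. Position 1 would be the start of the coding sequence of the transgene, which has no place in the mouse genome assembly. The first set had some of the largest fold changes in transitions with AID and Ugi, and each of its triplets begins with C.
Position 641: gactaCACcatcgtg
Position 240: tgaagCACcccgccg
Position 678: gccgcCACtccaccg
Position 491: gatctCGCccttcag
Position 113: gccctCGCcctcgcc
Position 479: cagggCGCcgtcctc
The second set begins with G. Positions 551 and 636 carry C or T at +1, positions 411, 318, 244 and 324 carry G at +1 and had some of the smallest fold changes with AID and Ugi, and position 527 had a high background in every library.
Position 551: gtcaaGACcacctac
Position 636: acgagGACtacacca
Position 411: cctccGACggccccg
Position 318: tcgagGACggcggcg
Position 244: atgtcGGCggggtgc
Position 324: acggcGGCgtggtga
Position 527: gtagtGGCcgccgtc
Positions 641, 240, 678, 551, 636, 411, 318 and 324 are read on the coding strand and positions 491, 113, 479, 244 and 527 on the other. The windows of neighbouring sites share bases, so such sites are not independent sequences.

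With UNG inhibited, AID raised transitions at many of these sites. In the Ugi arm 47 of the 124 sites passed the threshold (edgeR quasi-likelihood test, adjusted p under 0.05 over 674 positions), all of them higher with AID than with AID-E58Q. That is 37.9%, against 22.1% of all 674 positions. Every call in this comparison was at a C:G pair: 61 of 67 WRC sites, 38 of 96 sites with a pyrimidine at -1 and A or T at -2, and 3 of 139 with a pyrimidine at -1 and C or G at -2 passed, while 0 of 248 A:T pairs did. The median log2 fold change was 1.74 over the 124 sites, against 0.68 over all positions and 4.68 over the WRC sites. It was above 0 at 120 of the 124 sites and ran from -0.24 to 7.09. The libraries of the groups did not overlap at 46 sites (all 3 with AID above all 3 with AID-E58Q), against 22.3% of all positions. Only 40 of the 47 sites past the threshold were among them, so the groups overlapped at the other called sites.

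Averaged over the 124 sites, transitions were at 8.65, 7.62 and 29.5 per 10000 in the AID libraries with Ugi of experiments 1, 2 and 3, against 3.66, 3.74 and 4.70 with AID-E58Q and Ugi. The means were 15.3 ± 12.4 with AID and 4.03 ± 0.58 with AID-E58Q (SD, n = 3 each), a ratio of 3.79. These means and the ratios below include position 527, a site of high background with 81.3 with AID and 87.6 with AID-E58Q. The AID library of experiment 3 was far above the other two, and it was the highest of the 3 AID libraries at 122 of the 124 sites. Within experiments the ratio of AID to AID-E58Q was 2.36, 2.04 and 6.29. The transition excess over AID-E58Q at these sites was 11.3%, 11.2% and 12.4% of the excess at WRC sites in experiments 1, 2 and 3, so it stood in nearly the same proportion to that of the preferred motif in all 3.

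The number of calls depended on single libraries. It was 22 without the AID library of experiment 3, and 26 without the AID-E58Q library of either experiment 1 or 2. All libraries of 1 experiment were also left out together, which gave 0 calls without experiment 1, 35 without experiment 2 and 21 without experiment 3. With experiment as a block the 3 counts were 59, 72 and 25, and with all libraries 69 sites passed (30.9% of all positions), among them all 47. The call was kept under the loss of any single library of this arm at 21 of the 47 sites, of which 17 had C at -2.

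The sites divide first by the purine at -1. Transitions at the 46 sites with A at -1 averaged 7.93, 7.49 and 34.1 per 10000 with AID and Ugi, against 2.17, 2.17 and 3.43 with AID-E58Q and Ugi. The ratio of the means was 6.37, and 23 of the 46 sites passed the threshold. At the 78 sites with G at -1 the values were 9.08, 7.69 and 26.8 with AID and Ugi, and 4.55, 4.66 and 5.44 with AID-E58Q and Ugi. The ratio was 2.98, or 3.59 without position 527, and 24 of the 78 passed. AID and AID-E58Q libraries did not overlap in either split. The difference of the means was 13.9 per 10000 with A at -1 and 9.66 with G at -1, so the splits lay closer in the excess than in the ratio, and the background was higher with G at -1. By medians, this order of the excess was not the same for both bases at -2, as given below.

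**Figure D1:**
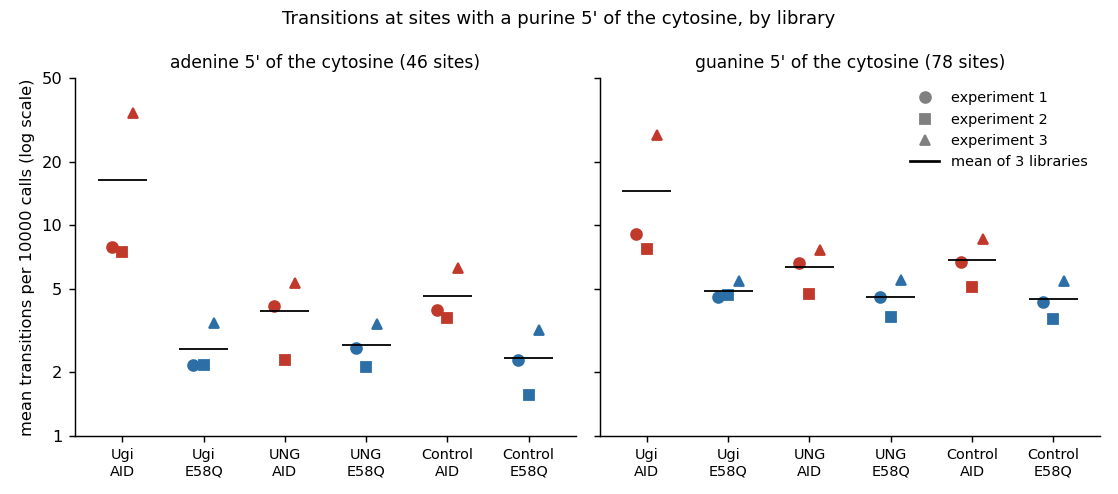
Mean transitions per 10000 base calls (log scale) over the 46 sites with A and the 78 sites with G 5′ of the cytosine, 1 symbol per library, with the mean of 3 libraries as a line. The AID libraries with Ugi lie above those with AID-E58Q in both panels, and the one of experiment 3, at 34.1 and 26.8, is the highest.

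The base at -2 divided the sites further. This split, like those by +1 base, strand and distance that follow, was made after values had been seen, so it is a description with no test. Of the 55 sites with C at -2, 37 passed in the Ugi arm, and their median log2 fold change was 2.63. Of the 69 sites with G at -2, 10 passed, with a median of 1.12. The order was the same within each base at -1. With A at -1, 18 of 24 sites preceded by C passed and 5 of 22 preceded by G. With G at -1 these counts were 19 of 31 and 5 of 47. The median difference between AID and AID-E58Q was larger with A than with G at -1 only where C was at -2. There it was 13.99 per 10000 with A at -1 and 10.51 with G at -1. Where G was at -2 it was 3.91 with A at -1 and 4.49 with G at -1.

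Sites with C and with G at -2 differed in the excess as well as in the ratio. Transitions at the C sites averaged 10.4, 7.96 and 41.8 per 10000 with AID and Ugi, against 2.14, 1.88 and 3.22 with AID-E58Q and Ugi. At the G sites they averaged 7.23, 7.34 and 19.7 with AID and Ugi, and 4.88, 5.21 and 5.87 with AID-E58Q and Ugi. Position 527, described below, is among these G sites and raises both means, at 81.3 with AID and 87.6 with AID-E58Q in this arm. The excess over AID-E58Q was thus 8.30, 6.08 and 38.6 per 10000 in experiments 1, 2 and 3 with C at -2, against 2.35, 2.13 and 13.9 with G at -2. It was larger with C at -2 in all 3 experiments. As shares of the WRC excess these were 18.8%, 17.6% and 19.3% with C at -2, and 5.31%, 6.15% and 6.92% with G at -2.

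**Figure D2:**
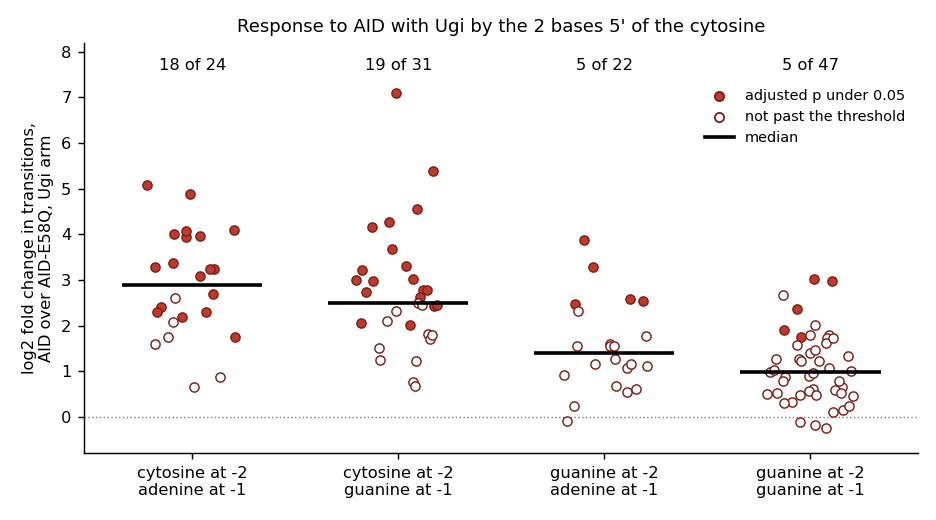
Log2 fold change in transitions, AID over AID-E58Q in the Ugi arm, at each of the 124 sites by the bases at -2 and -1. Filled points passed the threshold (counts above each column), bars are medians, and the medians are 2.89 and 2.49 with C at -2 and 1.40 and 0.99 with G at -2.

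The base at +1, 3′ of the cytosine, also went with the response. With T at +1, 12 of 17 sites passed (median fold change 6.39), and with C at +1, 25 of 55 did (median 4.21). The counts were 4 of 15 with A at +1 (median 2.39) and 6 of 37 with G at +1, a CpG (median 1.60). The bases at -2 and +1 were unevenly combined, since 24 of the 69 sites with G at -2 also had G at +1, against 13 of the 55 with C at -2. Leaving CpG sites out, 31 of 42 sites with C at -2 passed and 10 of 45 with G at -2. None of the 24 sites with both G at -2 and G at +1 passed, and their median fold change was 1.43. Of the 4-base contexts, CACC passed at 10 of 13 sites and CGCC at 10 of 17, whereas GGCG passed at 0 of 17 and GACG at 0 of 7. Among rarer contexts, all CACT sites (positions 291, 531 and 678) and all CGCT sites (positions 54, 146, 297 and 459) passed. The median background over the 9 AID-E58Q libraries was 4.24 per 10000 with G at +1 and 2.24 to 2.76 with the other bases.

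Strand, place in the reporter and distance from a WRC site separated the members less than the base at -2 did. Of the sites with the cytosine on the coding strand 23 of 71 passed, and of those with it on the other strand 24 of 53. By order along the reporter, 16 of 41, 15 of 41 and 16 of 42 passed. With a WRC base directly adjacent 11 of 23 passed, with one 2 to 5 bases away 17 of 42, and at 6 or more bases 19 of 59. In a GpC step both strands carry a cytosine after a guanine. At the 20 sites with G at -1 and A or T at +1 the cytosine of the other strand is a WRC site, and 10 of those passed, against 14 of the 58 with C or G at +1.

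Among the sites with A at -1, position 641 had the largest fold change in the Ugi arm. Its transitions were at 43.5, 44.3 and 212 per 10000 with AID and Ugi, against 3.44, 2.14 and 3.14 with AID-E58Q and Ugi. Even the lowest AID library was far above all 3 AID-E58Q libraries. The log2 fold change was 5.09 (SE 0.79, edgeR adjusted p = 0.000295), and it stayed past the threshold when any single library of the arm was left out (highest adjusted p 0.006). At position 240 the values were 5.28, 13.5 and 73.2 with AID and Ugi, and 0.381, 0.183 and 2.23 with AID-E58Q and Ugi (log2 fold change 4.89, SE 1.14, edgeR adjusted p = 0.00378). Position 678, a CACT site, was at 25.1, 9.47 and 62.1 with AID and Ugi, against 1.92, 3.33 and 1.22 with AID-E58Q and Ugi (log2 fold change 4.01, SE 0.81, edgeR adjusted p = 0.0015). The other 3 of the 6 largest in this split were positions 536, 379 and 157, all CACC, with log2 fold changes of 4.10, 4.08 and 3.97, so positions 536 and 379 ranked above 678 and 157 below it. The AID and AID-E58Q groups did not overlap at any of these 6 sites.

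With G at -1 the largest fold was at position 63, where all 3 AID-E58Q libraries with Ugi had 0 transitions. Its AID libraries with Ugi were at 5.13, 17.2 and 36.7 per 10000. Against 3 counts over the coverage of the AID-E58Q group the difference was at least 11.9-fold (edgeR adjusted p = 0.00273). This is one of the thinnest sites, and its adjusted p was 0.0527 without the AID-E58Q library of experiment 3. Position 491 was at 22.8, 7.31 and 111 with AID and Ugi, against 0.5, 0.721 and 1.88 with AID-E58Q and Ugi (log2 fold change 5.4, SE 1.22, edgeR adjusted p = 0.00315). Position 113 was at 28.4, 17.9 and 95.1 with AID and Ugi, and at 0.845, 2.00 and 2.96 with AID-E58Q and Ugi (log2 fold change 4.56, SE 1.10, edgeR adjusted p = 0.0047). Both are CGCC sites and lay 16 bases from the nearest WRC base. Positions 590, 297 and 479 followed, with log2 fold changes of 4.27, 4.15 and 3.67. Each of these 6 sites had C at -2 and groups that did not overlap.

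**Figure D3:**
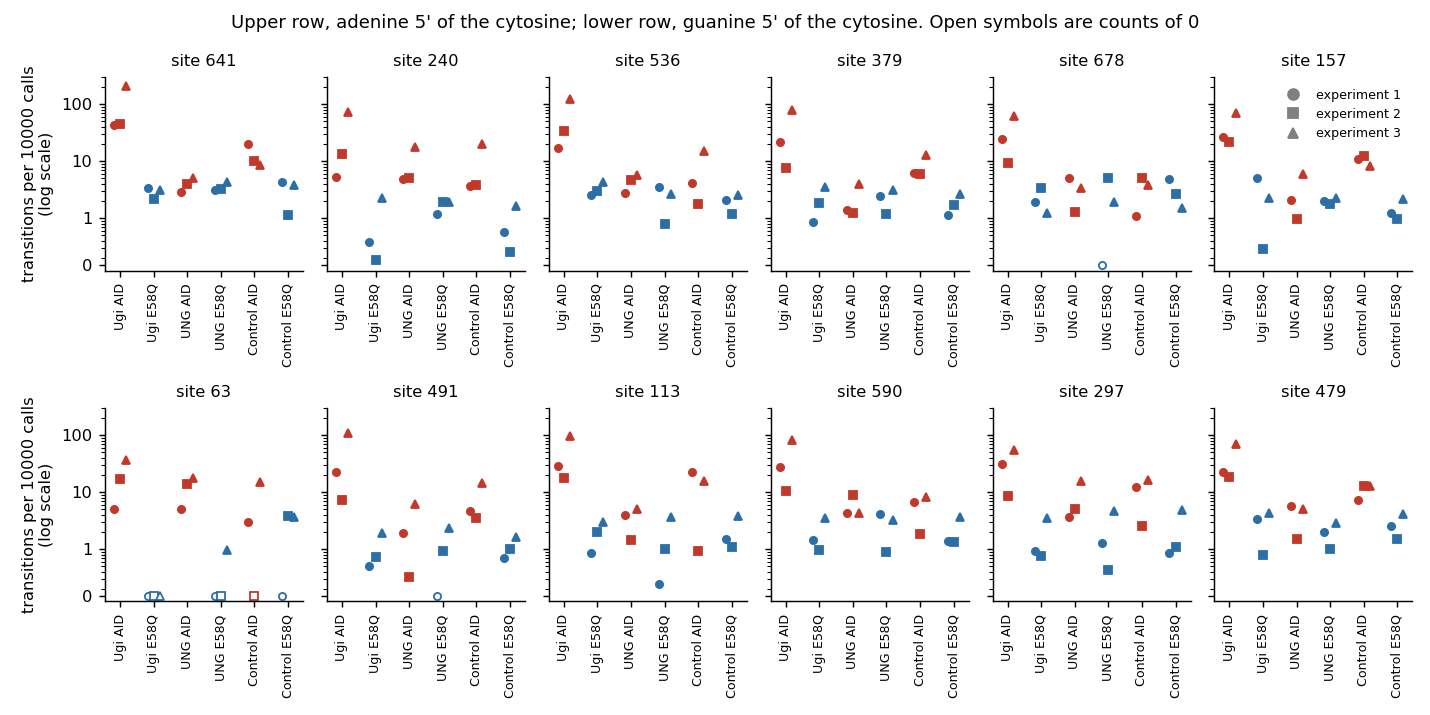
Transitions per 10000 base calls (log scale) in every library at the 6 sites with the largest fold changes in the Ugi arm for A (upper row) and G (lower row) 5′ of the cytosine. Open symbols are counts of 0, and at every site the 3 AID libraries with Ugi lie above the 3 with AID-E58Q and Ugi.

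The 6 sites with the smallest changes, 3 for each base at -1 among sites with at least 10000 calls in all libraries, all had G at -2. Position 411 was at 4.40, 2.38 and 5.93 per 10000 with AID and Ugi, against 2.58, 3.54 and 4.5 with AID-E58Q and Ugi (log2 fold change 0.25, SE 0.52, edgeR adjusted p = 0.872). Positions 318 and 360, both GACG as well, had log2 fold changes of 0.54 and 0.61. Position 244, a GGCG site, was at 3.04, 2.84 and 7.90 with AID and Ugi, and at 5.84, 4.67 and 5.80 with AID-E58Q and Ugi (log2 fold change -0.24, SE 0.61, edgeR adjusted p = 0.913). Position 324 had a log2 fold change of -0.18. At each of these 5 sites the groups overlapped. Their means with AID-E58Q and Ugi were 3.41 to 6.56, and the median background of sites with C at -2 over the 9 AID-E58Q libraries was 2.25.

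Position 527, the last of the 6, stood apart from every other SRC site. Its transitions were at 91.7, 100 and 51.9 per 10000 with AID and Ugi, and at 112, 114 and 36.8 with AID-E58Q and Ugi. The range over all 18 libraries was 36.7 to 114, and all 6 libraries of experiment 3 were below all others. The next highest mean over the AID-E58Q libraries was 9.79, at position 674. Since position 527 adds about 1 per 10000 to the mean of the 78 sites with G at -1, their ratios are also given without it where they changed.

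**Figure D4:**
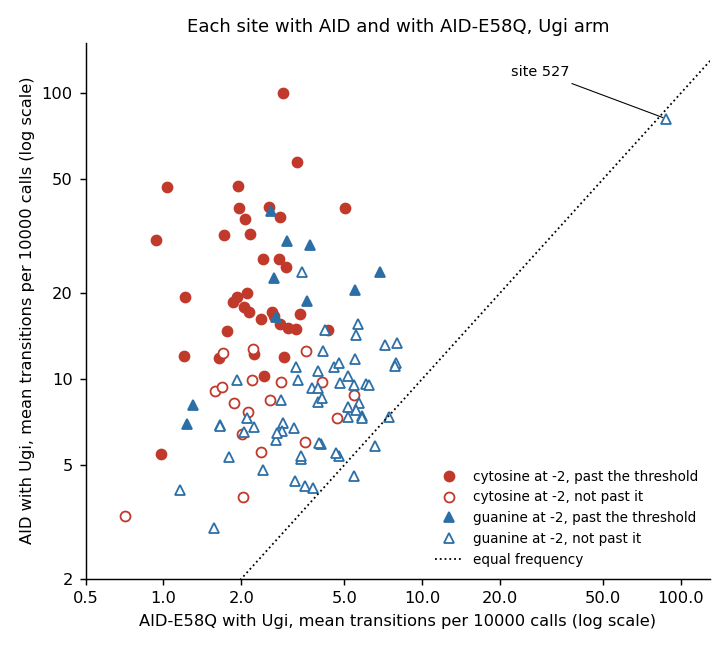
Mean transitions per 10000 base calls of 3 libraries with AID (y axis) and with AID-E58Q (x axis) in the Ugi arm, both on log scales, 1 symbol per site by the base at -2, filled where the site passed the threshold. Most sites lie above the dotted line of equal frequency, and position 527 lies near it at 81.3 with AID and 87.6 with AID-E58Q. Position 63, with 0 in the AID-E58Q group, is not drawn.

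Without Ugi the response at these sites was small. The mean transition excess at WRC sites was smaller too, at 93.0 per 10000 with Ugi, 10.8 with UNG and 23.6 with the empty vector. The mean SRC excess was 12.1%, 14.4% and 9.85% of it in these arms. In the UNG arm 0 of 124 sites passed for transitions (6 at an unadjusted p under 0.05), and 0.0% of all positions did. Counts at an unadjusted p under 0.05, here and below, lack a share over all positions and are not read as results. Mean transitions were at 5.72, 3.81 and 6.80 per 10000 with AID and UNG, against 3.84, 3.10 and 4.71 with AID-E58Q and UNG, and the groups overlapped. The AID library was the higher of the pair in each experiment, by ratios of 1.49, 1.23 and 1.44. With experiment as a block 5 sites rose, at positions 63, 240, 297, 482 and 570, against 4.15% of all positions, and DESeq2 called 1. The ratio of means was 1.45 with A at -1 and 1.38 with G at -1 (1.52 without position 527). The mean excess was smaller with A, at 1.22 per 10000 against 1.75 with G at -1.

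The Control arm, with the cells' own UNG, gave 0 sites past the threshold for transitions (19 at an unadjusted p under 0.05), against 2.52% of all positions. Mean transitions were at 5.67, 4.57 and 7.76 per 10000 with AID and the empty vector, and at 3.56, 2.85 and 4.60 with AID-E58Q and the empty vector. The lowest AID library lay below the highest AID-E58Q library by a small margin, while the ratio within experiments was 1.59, 1.60 and 1.69. The 3 AID libraries lay above the 3 AID-E58Q libraries at 22 sites, against 12.8% of all positions. With experiment as a block 17 sites rose (9.35% of all positions), 13 with C at -2 and 4 with G at -2, and 14 of the 17 were among the 47 sites called in the Ugi arm (14 of 47). DESeq2 called 10. The ratio of means was 1.96 with A at -1 and 1.53 with G at -1 (1.72 without position 527). It was 2.54 with C at -2 against 1.3 with G at -2, where position 527 is included. For the base at -1 the excess had the other order, at 2.26 per 10000 with A and 2.36 with G.

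The 3 sites nearest the threshold in the Control arm did not pass it. Position 157 was at 10.9, 12.5 and 8.24 per 10000 with AID, against 1.25, 0.954 and 2.21 with AID-E58Q (edgeR adjusted p = 0.0836, or 0.00278 with the block). Position 636 was at 9.08, 14.1 and 11.5 with AID, and at 2.58, 0.343 and 2.70 with AID-E58Q (edgeR adjusted p = 0.0875, or 0.00777 with the block). Position 66, a thinly covered CGCA site, was at 2.58, 5.76 and 13.2 with AID, and at 0, 0 and 0.892 with AID-E58Q (edgeR adjusted p = 0.0776, or 0.00181 with the block). All 3 had AID libraries above every AID-E58Q library.

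Among AID libraries, transitions at most SRC sites were more frequent with Ugi than with the empty vector, but no site passed the threshold (0 of 124, with 40 at an unadjusted p under 0.05). The median log2 fold change was 1.26, against 0.45 over all positions, and it was above 0 at 119 sites. With experiment as a block 31 sites rose, against 16.6% of all positions, and DESeq2 called 22. The ratio of the means within experiments 1, 2 and 3 was 1.53, 1.67 and 3.81. At sites with A at -1 the libraries did not overlap (7.93, 7.49 and 34.1 with Ugi, against 3.96, 3.62 and 6.26 with the empty vector), while at sites with G at -1 they did (9.08, 7.69 and 26.8 with Ugi, against 6.68, 5.12 and 8.64).

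Position 678 came closest, at 25.1, 9.47 and 62.1 per 10000 with AID and Ugi, against 1.07, 5.16 and 3.87 with AID and the empty vector (log2 fold change 3.16, SE 0.68, edgeR adjusted p = 0.0637, or 0.00125 with the block). Position 551, a GACC site, was at 11.8, 8.65 and 29.0 with AID and Ugi, and at 1.96, 1.60 and 3.03 with AID and the empty vector (log2 fold change 2.89, SE 0.66, edgeR adjusted p = 0.0637, or 0.000772 with the block). Position 641 was at 12.8 ± 6.07 with AID and the empty vector (SD, n = 3), where the Ugi libraries had 43.5 or more (edgeR adjusted p = 0.066, or 0.00206 with the block). The groups did not overlap at any of these 3 sites. The interaction, which asks whether the AID effect itself differed between the Ugi and Control arms, passed at 0 sites (12 at an unadjusted p under 0.05), also with the block and by DESeq2. The call of 47 sites in one arm and 0 in the other is therefore not itself a shown difference at any site.

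UNG over the empty vector, among AID libraries, gave 0 sites for transitions and a median log2 fold change of -0.05. The means over the 124 sites were 5.44 ± 1.52 with AID and UNG and 6.0 ± 1.62 with AID and the empty vector (SD, n = 3 each), which differ by less than the spread. With the block 1 site fell, position 54 (0.742% of all positions), at 0.806, 0.603 and 4.54 per 10000 with UNG against 12.1, 6.1 and 13 with the empty vector (edgeR adjusted p = 0.044 with the block and 1.00 without). The interaction of UNG with AID passed at 0 sites (1 at an unadjusted p under 0.05), also with the block and by DESeq2. For transversions UNG over the empty vector gave 0 sites (5 with an unadjusted p below 0.05). The block also gave 0, against 0.148% of all positions, as did DESeq2, and the median log2 fold change was 0.24.

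Transversions, which can arise when abasic sites are copied, passed the threshold at no SRC site in any arm. In the Ugi arm 0 sites passed (1 at an unadjusted p under 0.05, and 0 with the block or by DESeq2), as did 0.0% of all positions, and the median log2 fold change was 0.14. In the UNG arm 0 passed (9 at an unadjusted p under 0.05), against 3.12% of all positions, and the median was 0.65. In the Control arm 0 passed (12 at an unadjusted p under 0.05), against 3.41%, with a median of 0.46. With experiment as a block 2 sites rose in the UNG arm (positions 240 and 297, against 4.75% of all positions) and 6 in the Control arm (9.05% of all positions), 5 of them with C at -2, and DESeq2 called 1 site in the UNG arm and 2 in the Control arm.

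Position 297, a CGCT site next to a WRC base, came closest. Its transversions were at 9.99, 6.52 and 14.3 per 10000 with AID and UNG, against 1.29, 2.73 and 2.46 with AID-E58Q and UNG (log2 fold change 2.24, SE 0.62, edgeR adjusted p = 0.0575, or 0.00209 with the block). In the Control arm it was at 9.24, 4.16 and 10.5 with AID and at 2.47, 1.63 and 1.75 with AID-E58Q, whereas in the Ugi arm the groups overlapped (5.33, 3.41 and 1.74 with AID, against 2.78, 1.48 and 1.84 with AID-E58Q). Position 641 had transversions at 1.63, 1.55 and 1.67 with AID and Ugi, against 3.00, 5.01 and 11.5 with AID and the empty vector. That is a log2 fold change of -2.01 (SE 0.64, edgeR adjusted p = 0.158, or 0.00583 with the block). With the block 2 sites were lower with Ugi than with the empty vector, positions 641 and 240, against 5.79% of all positions. Without it 0 were, against 2.52%. At position 641 the transitions ran the other way, higher with Ugi than with the empty vector in every library.

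Mean transversions over the 124 sites were at 5.70, 2.80 and 3.38 per 10000 with AID and UNG, against 2.46, 2.65 and 2.45 with AID-E58Q and UNG. The high value was in the AID library of experiment 1, whose C>A frequency was 4.32 at these sites, against 2.16 and 2.00 in experiments 2 and 3. In the same library C>A was at 5.52 per 10000 over the 139 sites with a pyrimidine at -1 and C or G at -2, against 1.11 and 1.38 in experiments 2 and 3. The part of this in the UNG values was not tested. Within the 55 sites with C at -2, C>G was at 1.2, 0.764 and 1.3 per 10000 with AID and the empty vector, against 0.664, 0.378 and 0.483 with AID-E58Q and the empty vector, without overlap. The same sites had C>G at 0.784, 0.644 and 0.744 with AID and Ugi, and at 0.826, 0.519 and 0.669 with AID-E58Q and Ugi, where the groups overlapped.

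In the Ugi arm the excess of AID over AID-E58Q at the 124 sites was 4.99, 3.88 and 24.8 transitions per 10000 in experiments 1, 2 and 3, and 0.88, 0.71 and 0.03 transversions. Transitions made up 85.0%, 84.5% and 99.9% of it within the experiments and 95.4% of the average over all 3, which experiment 3 carries. In the UNG arm the excess was 1.88, 0.70 and 2.09 transitions and 3.24, 0.14 and 0.93 transversions, with transition shares of 36.7%, 83.0% and 69.2% and 52.0% of the average. The share of the average there rests on the library with raised C>A in experiment 1. In the Control arm the excess was 2.11, 1.71 and 3.16 transitions and 0.85, 0.47 and 1.38 transversions, with shares of 71.3%, 78.6% and 69.5% and 72.1% of the average. Over all 124 sites the transversion excess with Ugi was thus lower than with the empty vector only in experiment 3. At sites with C at -2 it was lower in all 3 experiments, at 0.39, 0.40 and -0.01 against 1.40, 0.89 and 2.12. At sites with G at -2 it was higher in experiments 1 and 2, at 1.27, 0.96 and 0.06 against 0.40, 0.14 and 0.80. At WRC sites the shares of the average were 99.8%, 36.4% and 63.9% in the Ugi, UNG and Control arms.

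**Figure D5:**
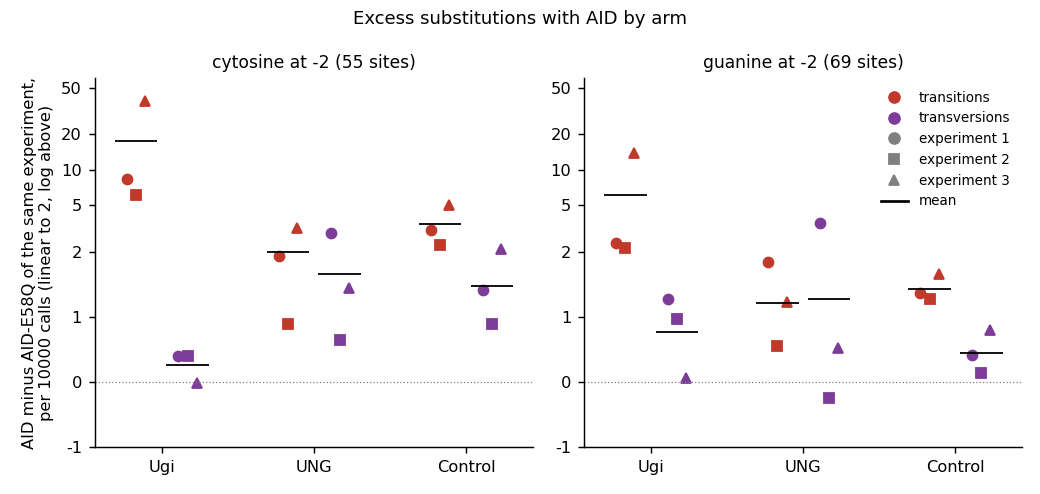
Excess of AID over AID-E58Q of the same experiment, in substitutions per 10000 base calls (linear to 2, log above), for transitions and transversions at sites with C and with G at -2, 1 symbol per experiment with the mean as a line. In the Ugi arm the transition excess is 8.30, 6.08 and 38.6 with C at -2 and 2.35, 2.13 and 13.9 with G at -2, while the transversion excess stays below 2 in both panels.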

How the data were processed

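Per the file headers, the authors deposited whole-number counts for every position of each library, namely reads, calls above Phred quality 20 and the single-base substitutions among those calls. Fractions deposited beside the counts matched them within 1e-12 and served only as a check. SAMtools 0.1.11, Novoalign 2.07.04 and CASAVA 1.7 are listed in the submitters' processing notes, with no roles, and how the reads were aligned is not given in the sources used here. Per the labels' protocols the reporter was amplified for 25 cycles, sheared, and amplified for 10 more. In 9 libraries the reads stopped near a ceiling at some positions, 2 of them SRC sites.

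Counts were tested with the quasi-likelihood test of edgeR 4.0.16 (R 4.3.3) on all 674 positions and 18 libraries, with log coverage as the offset and Benjamini-Hochberg adjustment at 0.05. The fit was tried on simulated counts drawn independently for every site and library. A shift shared by all sites of a library was not simulated. Positions 700 to 704 had fewer than 1000 calls in some library, none being an SRC site. The alternatives were TMM factors, DESeq2 1.42.0, limma 3.58.1 on log2 frequencies (with priors of 0.5 on counts and 1 on coverage), other coverage and count limits, the compared groups alone, the ends left out and libraries left out. The experiment numbers come from the sample titles and were used to pair the libraries. Deviations from the group means were compared between libraries of the same experiment, over 15 pairs of libraries. They correlated at 0.12 to 0.63 for transitions and 0.34 to 0.83 for transversions. For transitions the range was 0.46 to 0.63 in experiment 3 but 0.12 to 0.29 in experiments 1 and 2. The library of the same experiment was the best match in 9 of 15 pairs for transitions and 15 of 15 for transversions. Pairing for transitions was thus weak outside experiment 3. Experiment as a block was run as an alternative and is given where it changed a call.

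Sites named in the Ugi arm for transitions are, for A and for G at -1, the 6 largest fold changes among sites past the threshold without overlap, and the 3 smallest among sites with at least 10000 calls in all libraries; elsewhere, the 3 smallest p where none passed. Other sites were named after their values were seen. The site class, its splits and the tests were chosen with earlier results of these data known.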

Additional observations from a re-analysis of the deposited data

How the results depend on the processing

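The counts of SRC sites past the threshold depended on the setting, and the causes were not tested. With experiment as a replicate block, transitions passed at 17 sites in the Control arm, 5 in the UNG arm and 31 for Ugi over Control, against 0 in each without it, and 1 site was lower with UNG than with Control. Transversions passed with the block at 6 sites in the Control arm and 2 in the UNG arm, all higher with AID, and at 2 sites that were lower with Ugi than with Control. All 47 sites of the Ugi arm stayed past the threshold with the block, and both interactions stayed at 0. In the Ugi arm a coverage minimum of 10000 gave 43, no minimum 47 and the filter on low counts 47. DESeq2 gave 10, 1 and 22 sites for transitions in the Control arm, the UNG arm and Ugi over Control, and 2 and 1 for transversions in the Control and UNG arms. In the Ugi arm DESeq2 gave 52 for transitions, among them 45 of the 47. Shares over all positions are given only for edgeR with and without the block, so counts under the other settings lack that comparison. The counts at an unadjusted p under 0.05 lack it too. TMM factors gave 9, 2, 30 and 10 for transitions in the Control, UNG and Ugi arms and Ugi over Control. limma gave 1 site in the Control arm and 28 in the Ugi arm for transitions, and 1 in the UNG arm for transversions. A fit on the compared groups alone gave 6, 1 and 16 in the Control, UNG and Ugi arms, with fewer libraries for the spread. Without the first and last 25 positions Ugi over Control gave 2.

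With libraries left out, the counts for transitions ranged over 0 to 8 in the Control arm, 0 to 61 in the Ugi arm, 0 to 18 for Ugi over Control and 0 to 2 for UNG over Control, and over 0 to 1 for the interaction of UNG. For transversions they ranged over 0 to 2 in the Control arm and 0 to 1 in the UNG arm and for Ugi over Control. Leaving out experiments 1, 2 and 3 in the fit with the block, an alternative chosen after seeing the data, gave 2, 9 and 10 for transitions in the Control arm, 59, 72 and 25 in the Ugi arm, and 26, 29 and 7 for Ugi over Control. It gave 1 and 3 in the UNG arm without experiments 1 and 2, and, without experiment 3, 2 for UNG over Control and 1 for the interaction of UNG. For transversions it gave 3 and 6 in the Control arm, 2 and 7 in the UNG arm, and 2 and 6 for Ugi over Control, without experiments 1 and 2. The ratio of means with A at -1 in the Control arm was 1.62 from medians and 1.61 to 2.39 with libraries left out. With G at -1 it was 1.66 from summed counts, 1.7 from medians, 1.33 to 1.72 with libraries left out and 1.72 without position 527. In the UNG arm, leaving out libraries gave 1.19 to 1.75 with A and 1.24 to 1.56 with G at -1, and 1.52 without position 527 (also chosen after seeing the data). None of the ratios of means given here changed direction under these settings. Single sites could change sign, as in the interaction of Ugi with AID for transitions at position 54. Its log2 fold change was 0.41 without the block and -0.22 with it, past the threshold in neither fit. The E58Q libraries with Ugi or UNG of experiments 1 and 2 are the shallowest and limit the smallest frequencies.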
